A study of Homo sapiens with 12 samples.

Results

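The respiratory chain subunits were taken as all protein-coding genes of the count table whose symbols name a subunit of complexes I to V. The symbols were those starting with MT-ND, MT-CO, MT-CYB or MT-ATP, then NDUFA, NDUFB, NDUFC, NDUFS or NDUFV with a number, SDHA to SDHD, UQCR, COX4 to COX8, and ATP5. This gave 102 of the 58037 genes of the table, of which 13 lie on the mitochondrial chromosome and 89 in the nucleus. The mitochondrial genes belong to complex I (7), complex III (1), complex IV (3) and complex V (2), and the nuclear ones to complex I (39), II (4), III (9), IV (17) and V (20). Placement is by symbol, so that NDUFA4, which is known to associate with complex IV, is counted under complex I, and the assembly-linked COX7A2L under complex IV.

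The respiratory chain passes electrons from NADH through complex I, and from succinate through complex II, to coenzyme Q, complex III, cytochrome c and oxygen at complex IV. Complexes I, III and IV pump protons across the inner mitochondrial membrane, and complex V, the ATP synthase, uses the gradient to make ATP. All of these except complex II hold some core subunits made from mitochondrial DNA (in complex V, parts of the proton-conducting membrane portion), which is transcribed as long precursors that are cut into separate RNAs, whereas the other subunits are transcribed in the nucleus and imported. Normal prostate epithelium is known for an unusual metabolism in which citrate is secreted rather than oxidised.

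RNA-seq had been done on 2 prostate cancer lines that carry a tetracycline-inducible shRNA against MUC1 (tet-MUC1shRNA), with 3 samples per group and 12 in all. LNCaP-AI cells are an androgen-independent derivative of LNCaP, obtained from C4-2B cells by long culture in phenol red-free medium with charcoal-stripped serum. DU-145 cells are an androgen-independent prostate cancer line. In each line the cells received vehicle (0.1% DMSO) or 500 ng/ml doxycycline (DOX) for 7 days. The labels name the groups shCTL and shMUC1, and the groups are called vehicle and DOX here because every cell carried the MUC1 shRNA. Each line is a single model with a single shRNA, and cells with a control shRNA that received DOX were not analysed here. DOX is a tetracycline, a class of drugs known to bind mitochondrial ribosomes, so the effects of the drug and of MUC1 silencing on the subunits cannot be told apart. The samples of a group were cultured in triplicate, and nothing says how separate the cultures were, so p-values measure the spread between these samples, which may be technical. In such bulk samples, fewer cells of a kind and less RNA per cell cannot be told apart.

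Fold changes are given on the log2 scale with their standard errors (SE). Total counts ranged from 16569613 to 26961777 in LNCaP-AI and from 10423437 to 13544153 in DU-145. MUC1 had 36, 25 and 52 counts with vehicle and 8, 6 and 3 with DOX in LNCaP-AI, and 74, 60 and 59 with vehicle and 3, 3 and 3 with DOX in DU-145. MUC1 fell in both lines by edgeR, with log2 fold changes of -2.50 ± 0.330 (SE, adjusted p = 0.0139) and -4.39 ± 0.315 (SE, adjusted p = 1.37e-09), and in DU-145 the DOX counts equalled the detection floor of 3. The groups did not overlap in either line. Luminal prostate markers were present in LNCaP-AI (10 of 10 markers detected), whereas KLK3 and HOXB13 were at 0 counts in all DU-145 samples. The 3 white blood cell markers did not exceed 2 counts in any sample. In LNCaP-AI, treatment did not order the samples on principal component 1 (82.5% of the variance of 15929 genes, those of the mitochondrial chromosome and the subunits left out). Vehicle 1 lay together with DOX 2 and DOX 3, called side A here, and DOX 1 together with vehicle 2 and vehicle 3, called side B, and nothing in the labels matches this. LNCaP-AI differences are therefore also given by side and untested, as the mean of DOX 2 and DOX 3 minus vehicle 1 for side A and as DOX 1 minus the mean of the 2 vehicle samples for side B.

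As a share of all counts, the summed RNA of the mitochondrial subunits had a higher mean with DOX in LNCaP-AI and a lower mean in DU-145, with overlapping groups in both lines. The share of the nuclear subunits was higher in both without overlap. In LNCaP-AI the 13 mitochondrial genes took, of all counts, 3.45, 5.35 and 6.10% with vehicle and 5.61, 6.60 and 7.21% with DOX. Each DOX sample was above the vehicle sample of the same number. The numbers do not pair the samples, however, and in LNCaP-AI every such comparison crosses the sides. The means were 4.97 ± 1.36% with vehicle and 6.47 ± 0.805% with DOX (SD, n = 3 each), and the groups overlapped. Within side A the share differed by 1.00 on the log2 scale and within side B by -0.03. Vehicle 1 held the lowest share of the line, and without it the vehicle mean was 5.72%. In DU-145 the share was 5.36, 7.88 and 7.39% with vehicle and 5.06, 5.91 and 6.66% with DOX, and each DOX sample was below the vehicle sample of the same number, by 0.08, 0.42 and 0.15 on the log2 scale. The groups overlapped here as well, with means of 6.88 ± 1.34% with vehicle and 5.88 ± 0.800% with DOX (SD, n = 3 each). The 2 mitochondrial ribosomal RNAs, which are not subunits, took 1.37 to 1.81% of the LNCaP-AI vehicle counts and 1.90 to 2.31% of the DOX counts, and in DU-145 0.722 to 1.02% and 0.770 to 0.950%.

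The nuclear subunits together took a larger share of all counts with DOX in both lines, and the groups did not overlap. As a share of counts off the mitochondrial chromosome the DU-145 groups did overlap, with DOX 2 (0.907597%) just under vehicle 2 (0.907614%). The shares of all counts were 1.20, 1.17 and 1.08% with vehicle and 1.30, 1.29 and 1.29% with DOX in LNCaP-AI, and 0.718, 0.827 and 0.735% with vehicle and 0.871, 0.846 and 0.904% with DOX in DU-145. The means were 1.15 ± 0.0623% with vehicle and 1.29 ± 0.00388% with DOX in LNCaP-AI, and 0.760 ± 0.0585% with vehicle and 0.874 ± 0.0288% with DOX in DU-145 (SD, n = 3 each). In LNCaP-AI the log2 difference was 0.11 within side A and 0.20 within side B. The 95% Wilson intervals of these shares, which cover counting error only, were at most 0.0327 percentage points wide for the mitochondrial genes and 0.0110 for the nuclear ones, far less than the spread between samples. Counts of the mitochondrial over those of the nuclear subunits gave ratios of 7.47, 9.53 and 10.1 with vehicle and 5.81, 6.98 and 7.37 with DOX in DU-145, where all 3 DOX values lay under the lowest vehicle value. In LNCaP-AI the ratios were 2.88, 4.56 and 5.64 with vehicle and 4.33, 5.13 and 5.57 with DOX, and the groups overlapped. These sums are given as values without a test, and the smallest p that an exact permutation test of 3 samples against 3 can give is 0.1.

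**Figure D1:**
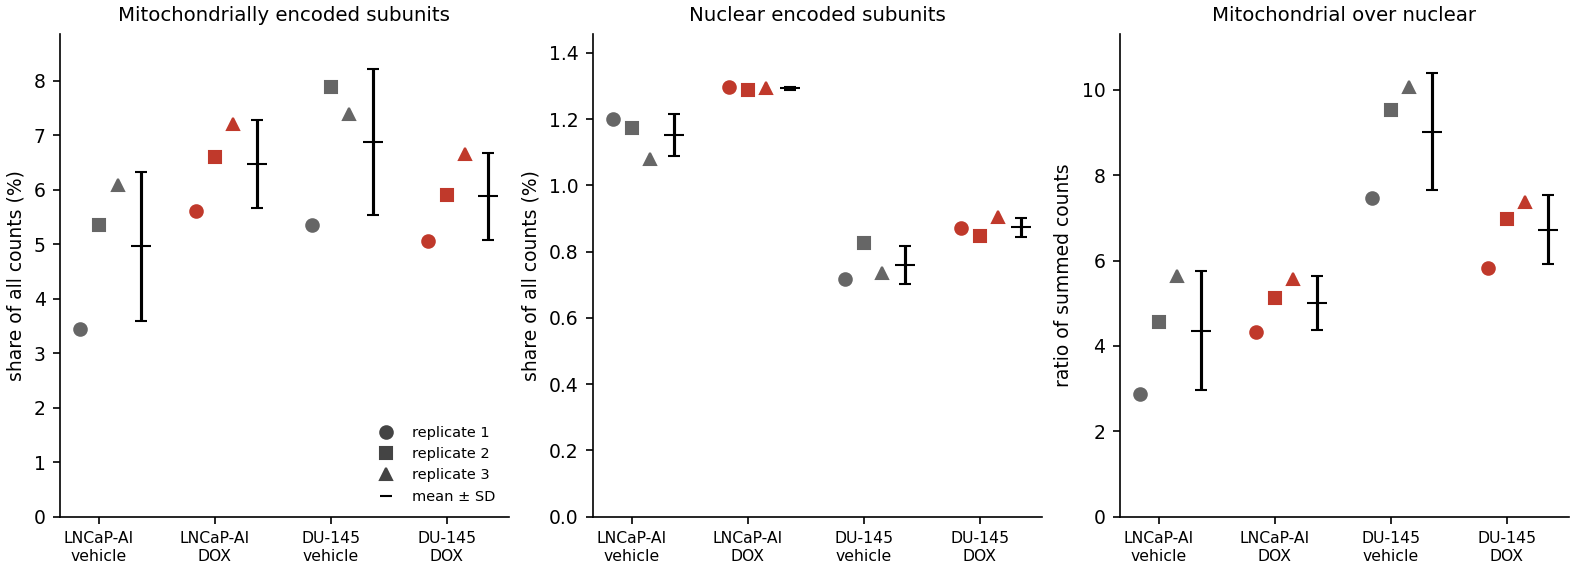
Share of all counts (%) taken by the 13 mitochondrially encoded subunits (left) and the 89 nuclear encoded subunits (middle), and the ratio of both sums (right). Symbols are single samples by replicate number, grey with vehicle and red with DOX, and bars give the mean ± SD of 3 samples. The nuclear share of every DOX sample lies above every vehicle sample of its line, and the DU-145 ratio with DOX (5.81 to 7.37) lies below that with vehicle (7.47 to 10.1).

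Among nuclear subunits summed by complex, in CPM (counts scaled to the library total after TMM normalization), complex II was the one whose groups overlapped in LNCaP-AI. Its sum was 589.6, 584 and 562 CPM with vehicle and 593, 561 and 555 CPM with DOX in LNCaP-AI and 497, 505 and 496 CPM with vehicle and 608, 577 and 579.6 CPM with DOX in DU-145, where each DOX sample was higher. Complex IV, which holds cytochrome c oxidase, gave 1715 ± 56.5 CPM with vehicle and 2058 ± 84.5 CPM with DOX in LNCaP-AI (SD, n = 3 each), without overlap. In DU-145 its values were 1230.5 ± 103 CPM with vehicle and 1378 ± 54.3 CPM with DOX (SD, n = 3 each), and vehicle 2, at 1345 CPM, lay above DOX 2, at 1325 CPM. Complex V had the largest nuclear sum in every group, 4845 ± 375 CPM with vehicle and 5438 ± 72.8 CPM with DOX in LNCaP-AI and 3091 ± 289 CPM with vehicle and 3711 ± 192 CPM with DOX in DU-145 (SD, n = 3 each).

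Scaled to exon length as TPM (transcript share per length, with all exons of a gene in GENCODE release 44 merged), the mitochondrial genes were far above the nuclear ones. With vehicle the median gene of the mitochondrial set had 13378 TPM in LNCaP-AI and 18083 TPM in DU-145, and the median nuclear subunit 114 and 92.9 TPM. Because merged exons can be much longer than the main mRNA, TPM of single nuclear genes understates those with long models. MT-ND4, a core subunit of complex I, had the highest level with vehicle in both lines, 28067 ± 7488 TPM in LNCaP-AI and 46065 ± 6866 TPM in DU-145 (SD, n = 3 each). MT-CO3 of complex IV followed, with 26986 ± 4986 and 28974 ± 4318 TPM (SD, n = 3 each). In LNCaP-AI these levels did not differ beyond their spread. The lowest was MT-ATP8 of complex V, with 5909 ± 2011 and 6371 ± 1528 TPM (SD, n = 3 each), whose end overlaps MT-ATP6. Among nuclear subunits ATP5F1B, the catalytic beta subunit of the ATP synthase, was the highest in all groups, with 2628 ± 423 TPM in LNCaP-AI and 1446 ± 41.4 TPM in DU-145 with vehicle (SD, n = 3 each).

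In DU-145 cells, 13 of 13 mitochondrial subunits had negative log2 fold changes with DOX, from -0.46 to -0.01, and 3 of them fell by edgeR's quasi-likelihood test (Benjamini-Hochberg adjusted p under 0.05), with 0 higher and 4 lower at an unadjusted p under 0.05. Of 78 nuclear subunits tested, 33 rose and 3 fell. Over all 13644 genes tested in this line, 26.3% rose and 25.3% fell, with a median log2 fold change of 0.00. Of these genes 7768 had an unadjusted p under 0.05 in either direction. The median of the mitochondrial subunits was -0.23 and that of the nuclear subunits 0.18. With DOX higher than vehicle for every replicate number there were 38 of the 78 nuclear subunits (34.7% of all genes) and 0 of the 13 mitochondrial ones, while 7 mitochondrial and 6 nuclear subunits were lower for every number (33.9% of all genes). The count of mitochondrial genes that fell depended on the fit. It was 0 with DESeq2 (2967 of all genes fell), 0 in a single fit of all 12 samples (2048) and 8 without a filter on low counts (3471). When 1 sample was left out it was 1 to 10, with 10 reached without vehicle 1 and 1 without vehicle 3 or without DOX 1. Those fits called 2932 to 3500 of all genes lower. The signs did not turn with other normalizations, but up to 2 of the 13 became positive when 1 sample was left out.

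MT-CYB, the cytochrome b of complex III and the sole mitochondrial gene of that complex (mitochondrial chromosome, 14747 to 15887), fell furthest. Its values were 3915, 5999 and 5430.4 CPM with vehicle and 3234, 3738 and 4201 CPM with DOX, a log2 fold change of -0.46 ± 0.128 (SE, adjusted p = 0.00574). DOX 3 lay above vehicle 1, and the other values did not cross. MT-ATP6, which forms the proton channel of complex V, had 3733, 5854 and 5322 CPM with vehicle and 3517, 3773 and 4474 CPM with DOX and a log2 fold change of -0.34 ± 0.131 (SE, adjusted p = 0.0351), with overlapping groups. MT-ND6, the one subunit transcribed from the other strand of the mitochondrial chromosome, had 944, 1250.3 and 1306 CPM with vehicle and 795, 973 and 1071 CPM with DOX, with a log2 fold change of -0.30 ± 0.112 (SE, adjusted p = 0.0308) and overlapping groups. The catalytic MT-CO1 and MT-CO2 of complex IV had log2 fold changes of -0.03 and -0.01, which did not pass the test.

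The make-up of the mitochondrial RNA was compared as well, by the share of each gene in it. In DU-145, as a percent of the counts of the 13 genes, MT-CYB took 7.41 to 7.66% with vehicle and 6.18 to 6.31% with DOX, and MT-ATP6 7.11 to 7.47% and 6.37 to 6.73%. MT-CO1 took 16.1 to 16.9% with vehicle and 18.0 to 18.6% with DOX, and MT-CO2 7.30 to 7.75% and 8.24 to 8.79%. None of these 4 pairs of ranges overlapped, and neither did those of MT-CO3, at 8.84 to 9.11% and 8.48 to 8.77%, or MT-ND1, at 6.78 to 6.92% and 7.06 to 7.34%. The other 7 genes had overlapping shares, among them MT-ND4, with 24.7 to 25.6% and 24.2 to 24.8%, and MT-ATP8, whose share spread widely, from 0.351 to 0.653% and from 0.358 to 0.652%. In LNCaP-AI the shares that did not overlap between vehicle and DOX were those of MT-ND5 (7.16 to 7.24% with vehicle, 6.28 to 6.35% with DOX), MT-ND4 (19.34 to 21.81% and 18.20 to 19.27%, which nearly met), MT-ND3 (1.41 to 2.25% and 2.35 to 2.75%) and MT-CO2 (7.47 to 8.14% and 8.28 to 8.65%). MT-CO2 was thus the one gene whose share was higher with DOX in both lines without overlap. In LNCaP-AI the shares of MT-ND1, MT-ND2, MT-CYB, MT-CO3 and MT-ATP6 parted by side without overlap. MT-ND1 took 7.54 and 7.22% in vehicle 2 and vehicle 3 and 6.47% in DOX 1, against 5.32% in vehicle 1 and 5.22 and 5.29% in DOX 2 and DOX 3. Shares of a fixed sum are not independent of each other, and they carry no test. No share over all genes was taken to set these counts of genes against.

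**Figure D2:**
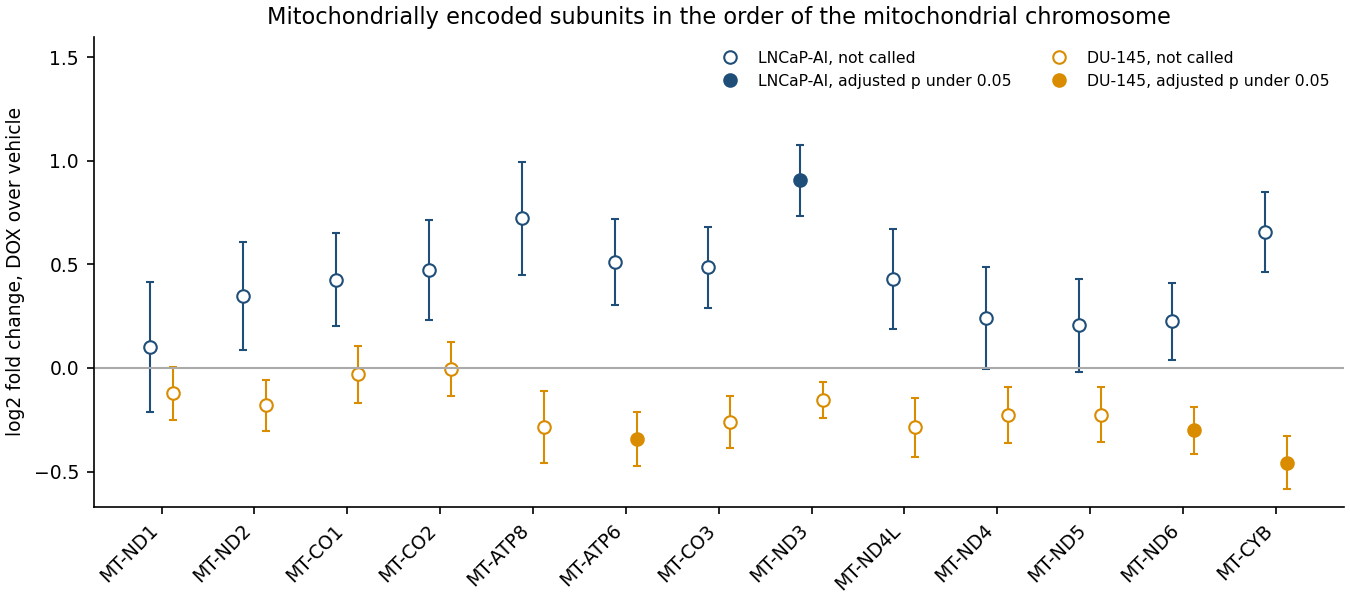
Log2 fold change with DOX (y axis) of the 13 mitochondrially encoded subunits, ordered along the mitochondrial chromosome (x axis), in LNCaP-AI (blue) and DU-145 (orange). Bars are standard errors from edgeR and filled points have an adjusted p under 0.05: MT-ND3 in LNCaP-AI, and MT-ATP6, MT-ND6 and MT-CYB in DU-145. Every LNCaP-AI point lies above 0 and every DU-145 point below 0.

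The nuclear subunits of DU-145 that rose were spread over the 5 complexes, where 26.3% of all genes rose and 25.3% fell. In complex I 15 of 36 tested (41.7%) rose and 1 fell, with 3 of the 7 conserved core subunits and 12 of the 29 accessory ones among those that rose. Complex II had 2 of 4 (50.0%), complex III 7 of 9 (77.8%), complex IV 5 of 11 (45.5%) and complex V 4 of 18 (22.2%, under the share of all genes) that rose, and complexes III and V had 1 each that fell. The log2 fold changes of the 15 complex I subunits that rose ran from 0.20 (NDUFV1) to 0.83 (NDUFA4), and of these NDUFS3, NDUFS5 and NDUFA9 had groups that overlapped. Leaving out vehicle 2 raised the nuclear count to 51, with 3615 of all genes higher. Leaving out any other sample gave 26 to 30, with 2986 to 3140 of all genes higher.

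NDUFB11, an accessory subunit of the membrane arm of complex I, had the smallest adjusted p. Its values were 27.3, 26.4 and 25.3 CPM with vehicle and 39.8, 38.6 and 43.7 CPM with DOX, without overlap, and the log2 fold change was 0.63 ± 0.0839 (SE, adjusted p = 4.41e-06). NDUFA4 had a larger change, with 97.2, 152 and 106 CPM with vehicle and 200.5, 199.6 and 228 CPM with DOX and a log2 fold change of 0.83 ± 0.114 (SE, adjusted p = 6.26e-06). All DOX samples were above all vehicle samples, and vehicle 2 was the highest of its group. NDUFB2 and NDUFA12, accessory subunits of complex I, rose by 0.47 and 0.50 on the log2 scale (adjusted p = 4.49e-05 and 8.33e-05). Reads of NDUFB11 and NDUFB2 are uncertain to a degree, since the annotation has RBM10 and BRAF on the opposite strand, and ADCK2 on the same strand as NDUFB2.

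In complex II, whose 4 subunits are all nuclear, the catalytic pair rose. SDHA, the flavoprotein that oxidises succinate, had 185, 189 and 169.7 CPM with vehicle and 245, 234 and 223 CPM with DOX and a log2 fold change of 0.37 ± 0.0692 (SE, adjusted p = 0.000198). SDHB, the iron-sulfur subunit, had 81.1, 101 and 86.5 CPM with vehicle and 118, 107 and 121 CPM with DOX and a log2 fold change of 0.37 ± 0.081 (SE, adjusted p = 0.000826). Neither gene's groups overlapped. The membrane anchors SDHC and SDHD had log2 fold changes of 0.13 and -0.06 (adjusted p = 0.0986 and 0.569).

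Complex III held the highest share of subunits that rose, with UQCRH, UQCRC1, UQCRC2, UQCR10, UQCR11 and UQCRB among them. UQCRHL, a near copy of UQCRH that could share its reads, had the largest log2 fold change, 0.91 ± 0.168 (SE, adjusted p = 0.00016), and is uncertain for that reason. The Rieske iron-sulfur protein UQCRFS1, which hands electrons to cytochrome c1, went the other way, with 106, 116 and 106 CPM with vehicle and 95.7, 88.9 and 100.2 CPM with DOX. It fell by 0.21 on the log2 scale (SE 0.0715, adjusted p = 0.0219), and the groups did not overlap.

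In complex IV the regulatory subunits COX5A and COX6A1 had the smallest adjusted p. COX5A had 101, 124 and 104 CPM with vehicle and 153, 136 and 158 CPM with DOX and a log2 fold change of 0.45 ± 0.0822 (SE, adjusted p = 0.000156). COX6A1 had 45.1, 54.2 and 54.2 CPM with vehicle and 69.8, 66.4 and 75.9 CPM with DOX and a log2 fold change of 0.47 ± 0.0837 (SE, adjusted p = 0.000117). Both rose without overlap, whereas COX7B, an accessory subunit of the same complex, differed by -0.26 on the log2 scale, with an adjusted p of 0.0828.

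In complex V the catalytic ATP5F1B had 830.4, 915 and 855 CPM with vehicle and 1364, 1206 and 1305 CPM with DOX. It rose by 0.58 ± 0.0774 (SE, adjusted p = 4.76e-06) on the log2 scale. The inhibitor of the same enzyme, ATP5IF1, which blocks ATP hydrolysis, rose as well, with 74.2, 82 and 69.1 CPM with vehicle and 94.7, 105 and 102 CPM with DOX and a log2 fold change of 0.43 ± 0.0762 (SE, adjusted p = 0.00011). The groups overlapped for neither. ATP5MC2, one of 3 genes for the c subunit of the proton-driven ring, had 108, 117 and 103 CPM with vehicle and 87.8, 90.6 and 93.4 CPM with DOX. It fell, by 0.27 on the log2 scale (SE 0.0706, adjusted p = 0.00372), again without overlap, while the c subunit gene ATP5MC1 differed by 0.13 on the log2 scale, with an adjusted p of 0.187. NDUFB5 of complex I was the other nuclear subunit that fell, with a log2 fold change of -0.18 ± 0.0738 (SE, adjusted p = 0.0487) and overlapping groups.

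**Figure D3:**
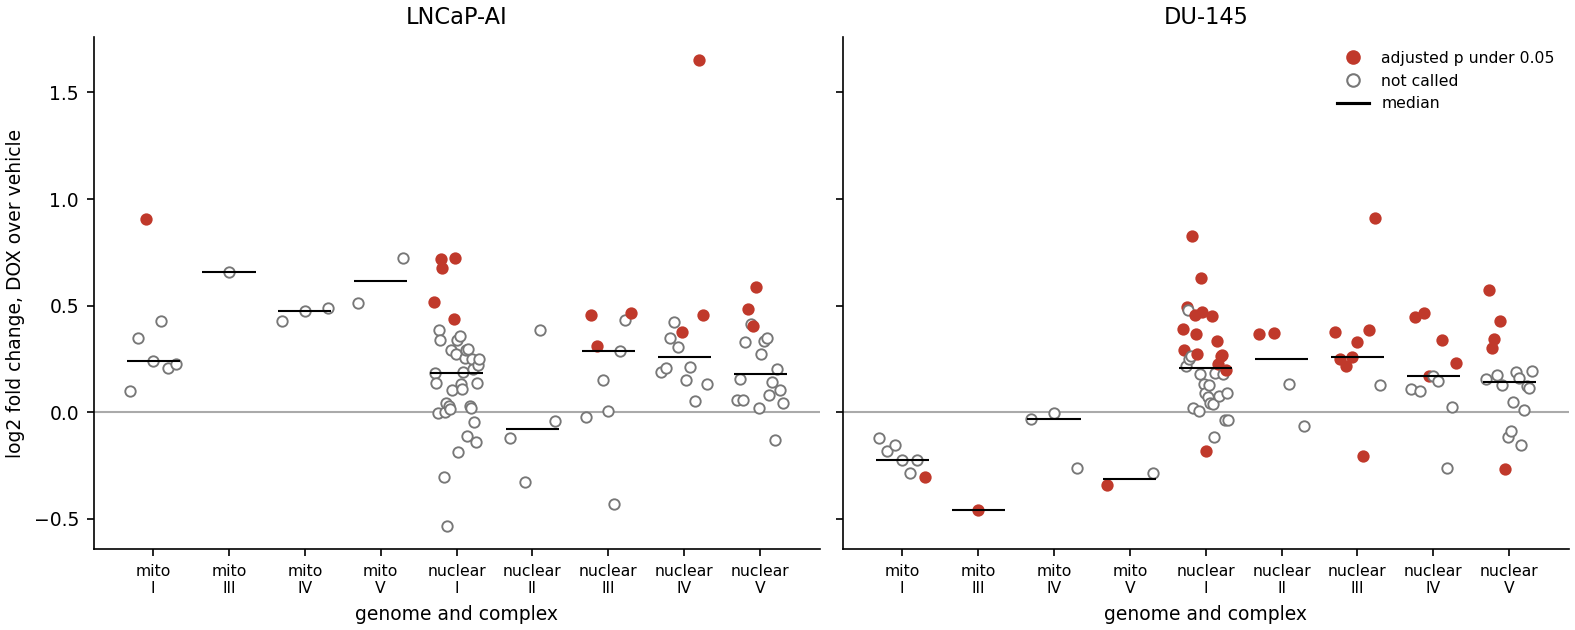
Log2 fold change with DOX (y axis) of the subunits tested in LNCaP-AI (left, 94 genes) and DU-145 (right, 91 genes), by genome and complex (x axis). Points are genes, filled where the adjusted p of edgeR is under 0.05, and lines are medians. All mitochondrial genes lie above 0 in LNCaP-AI and below 0 in DU-145, while most nuclear genes lie above 0 in both.

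In LNCaP-AI cells the mitochondrial and the nuclear subunits leaned the same way. Log2 fold changes were positive for 13 of 13 mitochondrial subunits (median 0.43) and for 68 of the 81 nuclear subunits tested (median 0.20), against a median of -0.05 over all 16030 genes tested. Without vehicle 1 the mitochondrial median was 0.23, and 1 of the 13 genes, MT-ND1, was negative. By the edgeR test 1 mitochondrial and 14 nuclear subunits rose and 0 fell, where 7.22% of all genes rose and 5.52% fell. At an unadjusted p under 0.05 there were 5 mitochondrial and 33 nuclear subunits higher and 0 and 1 lower. Of all 16030 genes 5003 passed that level in either direction. DESeq2 called 3 and 26 subunits higher and 0 and 1 lower, and over all genes 1897 higher and 1620 lower. DOX was higher than vehicle for every replicate number in 12 mitochondrial and 45 nuclear subunits (22.5% of all genes) and lower in 0 and 3 (20.9% of all genes). The numbers do not pair the samples, and each of these comparisons crosses the sides. Within the sides, where side A rests on vehicle 1 alone and side B on DOX 1 alone for a treatment, the medians of the genomes differed. The median of the mitochondrial subunits was 1.00 in side A and 0.03 in side B, and that of the nuclear subunits 0.12 and 0.25. Higher with DOX within both sides were 8 of 13 mitochondrial and 55 of 81 nuclear subunits (36.2% of all genes), and 0 and 8 were lower within both (41.4% of all genes).

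The calls in LNCaP-AI rested on few samples. Without DOX 2 or without DOX 3, 0 subunits of either genome rose, 1 gene of the whole table did and 0 fell, and 3204 and 3201 genes had an unadjusted p under 0.05. Without vehicle 2 and vehicle 3 the nuclear count was 6 and 3, with 606 and 531 of all genes higher. Without DOX 1 it was 23, with 1933 of all genes higher. With the side as a covariate 9 mitochondrial and 35 nuclear subunits rose and 1 nuclear subunit fell. Of all 16030 genes 3013 rose and 3258 fell in that fit. The sides came from the same samples, so these counts are given as a comparison.

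MT-ND3, a core subunit of complex I (mitochondrial chromosome, 10059 to 10404), was the mitochondrial gene that rose. Its values were 781, 749 and 1099 CPM with vehicle and 1579, 1543 and 1807 CPM with DOX, and the lowest DOX value exceeded the highest vehicle value. The log2 fold change was 0.91 ± 0.172 (SE, adjusted p = 0.0257), and 1.10 and 0.80 within sides A and B. MT-CYB had 3396, 4051 and 4822 CPM with vehicle and 5116, 6806 and 7412 CPM with DOX, also without overlap, and a log2 fold change of 0.66 ± 0.194 (SE, adjusted p = 0.078), with 1.06 and 0.21 within the sides. MT-CO2 and MT-CO3 did not overlap between the groups either (log2 fold changes 0.47 and 0.49, adjusted p = 0.245 and 0.153). MT-ND1, a core subunit of complex I, had 1850.2, 4001 and 4369 CPM with vehicle and 3718, 3426 and 3810.4 CPM with DOX, where vehicle 1 stood below all others. It had a log2 fold change of 0.10 ± 0.314 (SE, adjusted p = 0.843), and 0.97 and -0.17 within the sides.

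The 14 nuclear subunits that rose in LNCaP-AI are to be read against the 7.22% of all genes that rose. They were 5 of 38 tested in complex I (13.2%), 3 of 9 in complex III (33.3%), 3 of 12 in complex IV (25.0%) and 3 of 18 in complex V (16.7%). In complex II 0 of 4 rose, and 4 genes are too few to set this complex apart. NDUFA4 had the smallest adjusted p, with 121, 128 and 113 CPM with vehicle and 183, 195 and 200.2 CPM with DOX and a log2 fold change of 0.68 ± 0.0798 (SE, adjusted p = 0.0123). NDUFB2 had 60.2, 53.9 and 49 CPM with vehicle and 78.9, 92 and 98.3 CPM with DOX and a log2 fold change of 0.72 ± 0.123 (SE, adjusted p = 0.0209). NDUFA3 had 17.8, 14.2 and 14 CPM with vehicle and 25.3, 25.5 and 24.8 CPM with DOX and a log2 fold change of 0.72 ± 0.129 (SE, adjusted p = 0.0238). These 3 genes were also higher within both sides, by 0.71 and 0.61 for NDUFA4, 0.66 and 0.62 for NDUFB2 and 0.49 and 0.84 for NDUFA3, and the groups did not overlap. The annotation places TFPT opposite to NDUFA3.

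Complex V subunits ATP5F1E, the epsilon subunit of the central stalk, and ATP5MC1 and ATP5MC2, which encode the c subunit, rose as well. ATP5F1E had 157, 148 and 152 CPM with vehicle and 228, 207 and 203 CPM with DOX and a log2 fold change of 0.48 ± 0.077 (SE, adjusted p = 0.0182). ATP5MC1 rose by 0.40 on the log2 scale (adjusted p = 0.0227). The values of ATP5MC2 were 146, 112 and 126 CPM with vehicle and 187, 196 and 193 CPM with DOX, with a log2 fold change of 0.59 ± 0.109 (SE, adjusted p = 0.0251) and 0.41 and 0.66 within the sides. The catalytic ATP5F1B had 1725, 1529 and 1373 CPM with vehicle and 1712, 1734 and 1714 CPM with DOX, with overlapping groups and a log2 fold change of 0.16 ± 0.106 (SE, adjusted p = 0.373).

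In complexes III and IV, UQCRQ, UQCR11 and UQCRB rose by 0.47, 0.46 and 0.31 and COX6C and COX7C by 0.37 and 0.46 on the log2 scale. UQCRFS1 had 233, 219.6 and 182 CPM with vehicle and 165, 156 and 148 CPM with DOX, without overlap, and a log2 fold change of -0.43 ± 0.112 (SE, adjusted p = 0.0554), so that it did not pass the test. The complex II genes were spread in LNCaP-AI along the division of the samples. SDHB had 98.5, 149.5 and 131 CPM with vehicle and 129, 87.5 and 84.9 CPM with DOX and a log2 fold change of -0.33 ± 0.223 (SE, adjusted p = 0.373), with -0.19 and -0.12 within the sides. SDHC had 147, 109 and 108 CPM with vehicle and 134, 175 and 166 CPM with DOX and a log2 fold change of 0.38 ± 0.165 (SE, adjusted p = 0.175). In both genes the DOX 2 and DOX 3 samples were close to each other and apart from DOX 1. SDHA and SDHD had log2 fold changes of -0.12 and -0.04 (adjusted p = 0.505 and 0.863).

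**Figure D4:**
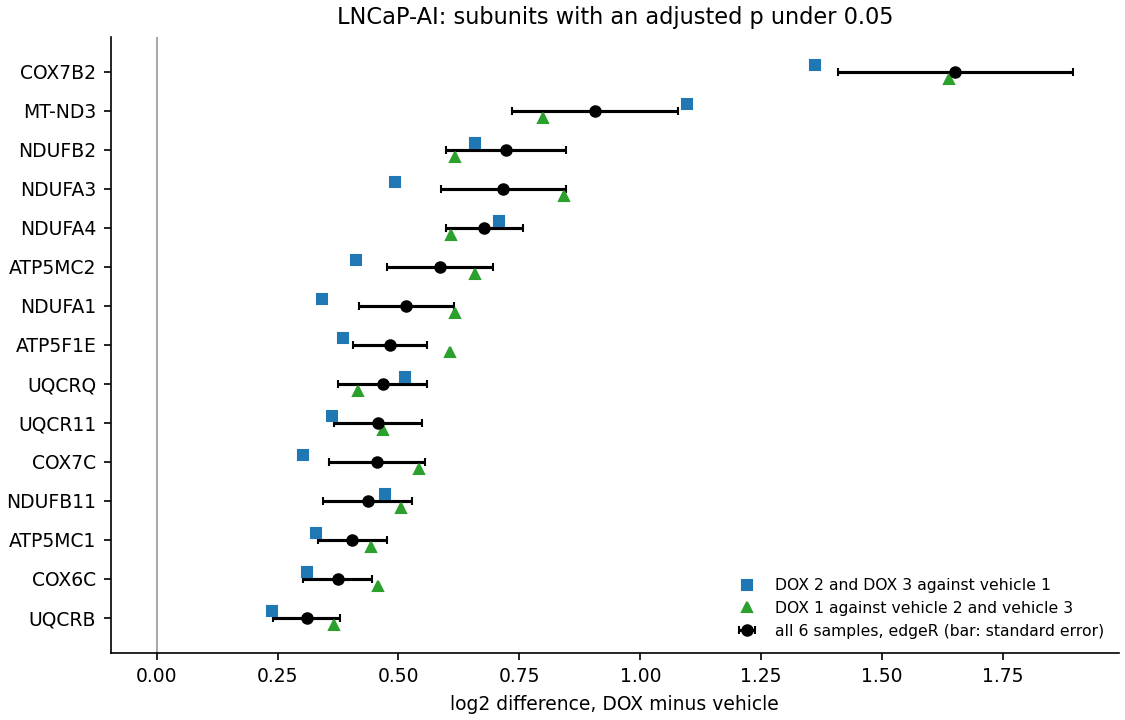
The 15 subunits that rose in LNCaP-AI (y axis) by their log2 difference between DOX and vehicle (x axis). Black points with standard errors are from edgeR over 6 samples, blue squares compare DOX 2 and DOX 3 with vehicle 1, and green triangles compare DOX 1 with vehicle 2 and vehicle 3. All values lie above 0, with COX7B2 at 1.65 furthest to the right.

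The difference between the lines in the effect of DOX was tested with an interaction term in a fit of 12 samples. It was positive, that is higher in LNCaP-AI, for 13 of 13 mitochondrial subunits (median 0.56) and for 42 of 81 nuclear ones (median 0.02). At an adjusted p under 0.05 of edgeR's interaction test 4 subunits were higher and 0 lower, where 5.43% of all 16800 genes tested were higher and 3.76% lower. At an unadjusted p under 0.05 there were 13 subunits higher and 7 lower, where 4275 of all 16800 genes passed in either direction. DESeq2 called 5 mitochondrial and 5 nuclear subunits higher and 0 and 2 lower, and over all genes 1282 higher and 999 lower. The 4 genes were ATP5MC2, with a difference of 0.89 ± 0.125 (SE, adjusted p = 0.00268), MT-ND3, with 1.09 ± 0.208 (SE, adjusted p = 0.0103), MT-CYB, with 1.14 ± 0.274 (SE, adjusted p = 0.0281), and COX7C, an accessory subunit of complex IV, with 0.47 ± 0.113 (SE, adjusted p = 0.0292). For COX7C the values were 249, 227 and 198 CPM with vehicle and 308, 309 and 307 CPM with DOX in LNCaP-AI, without overlap, and 167, 191 and 177 CPM with vehicle and 180.2, 180.5 and 182 CPM with DOX in DU-145, with overlap. Leaving out single samples raised the adjusted p of MT-CYB to as much as 0.072 and that of COX7C to as much as 0.0698, and left those of ATP5MC2 and MT-ND3 under 0.05.

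Of the 78 nuclear subunits tested in both lines, 13 rose in LNCaP-AI and 33 in DU-145, and 6 rose in both: NDUFA1, NDUFA4, NDUFB2 and NDUFB11 of complex I and UQCR11 and UQCRB of complex III. This was 46.2% of the LNCaP-AI list and 18.2% of the DU-145 list, where 42.3% of the nuclear subunits tested in DU-145 rose. NDUFA1, an accessory subunit needed for assembly of complex I and encoded on the X chromosome, had 81.7, 67.2 and 68.7 CPM with vehicle and 104, 103 and 103 CPM with DOX in LNCaP-AI and 33.7, 41.2 and 38.4 CPM with vehicle and 48.9, 51.1 and 48.3 CPM with DOX in DU-145. Its log2 fold changes were 0.52 ± 0.0985 (SE, adjusted p = 0.026) and 0.39 ± 0.0832 (SE, adjusted p = 0.000622), and the groups overlapped in neither line. UQCR11 and UQCRB, small subunits of complex III, rose by 0.46 and 0.31 in LNCaP-AI and by 0.25 and 0.22 in DU-145, all on the log2 scale. ATP5MC2 was the one subunit called in opposite directions.

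Promoter sequence is shown for ATP5MC2 and for 4 of the 6 subunits that rose in both lines, as the members the comparison of the lines turns on, while NDUFA4 and UQCRB were not matched to a promoter. RefSeq promoters (GRCh38.p14) were found for 70 of the 89 nuclear subunits, with 83 start sites between them. The motif GCGCATGC of NRF1, a transcription factor known to drive many respiratory genes, was present within 250 bases before the start, on either strand, in 16.9% of the subunit promoters and in 2.60% of all 34943 promoters. The ETS motif CCGGAAG, bound by the GABP factor among others, was present in 22.9% and 8.48%, and the YY1 motif AAGATGGC in 2.41% and 1.36%. The 100 bases before each start are given below 5′ to 3′ on the strand of the gene, with an NRF1 or ETS motif on either strand in capitals, and a match in these letters describes the sequence without showing that a factor binds there. No promoter of NDUFB2 or NDUFB11 held these letters in the bases shown, and 2 of the 3 starts of ATP5MC2 held the NRF1 motif.
ATP5MC2 start a, chr12:53675420-53675519, minus strand: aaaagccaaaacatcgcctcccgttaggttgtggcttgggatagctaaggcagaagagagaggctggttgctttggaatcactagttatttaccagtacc
ATP5MC2 start b, chr12:53676084-53676183, minus strand: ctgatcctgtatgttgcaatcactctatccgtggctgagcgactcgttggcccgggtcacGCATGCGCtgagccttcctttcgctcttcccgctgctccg
ATP5MC2 start c, chr12:53676331-53676430, minus strand: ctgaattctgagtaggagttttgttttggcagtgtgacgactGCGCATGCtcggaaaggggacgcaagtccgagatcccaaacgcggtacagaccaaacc
NDUFA1, chrX:119871732-119871831, plus strand: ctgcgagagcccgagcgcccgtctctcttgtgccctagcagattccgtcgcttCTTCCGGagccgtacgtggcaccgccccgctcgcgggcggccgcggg
NDUFB11, chrX:47144703-47144802, minus strand: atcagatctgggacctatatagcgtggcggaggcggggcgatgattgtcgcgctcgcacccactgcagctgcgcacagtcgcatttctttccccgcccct
NDUFB2, chr7:140696608-140696707, plus strand: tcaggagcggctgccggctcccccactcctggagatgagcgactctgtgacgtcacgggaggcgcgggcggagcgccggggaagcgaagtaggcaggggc
UQCR11, chr19:1605463-1605562, minus strand: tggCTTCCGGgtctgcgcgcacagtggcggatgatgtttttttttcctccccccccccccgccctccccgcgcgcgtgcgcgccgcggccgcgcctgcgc

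With vehicle the lines differed in opposite ways for the 2 genomes. Of the 13 mitochondrial subunits 0 were higher and 6 lower in LNCaP-AI than in DU-145 by edgeR (0 higher and 9 lower at an unadjusted p under 0.05, and 0 and 9 called by DESeq2), and all 13 log2 differences were negative, from -1.11 to -0.26. Of the 81 nuclear subunits tested 44 were higher and 8 lower, against 37.6% higher and 28.7% lower among all 16800 genes, whose median difference was 0.14. Of all genes 11678 had an unadjusted p under 0.05 in either direction, and DESeq2 called 5863 higher and 5090 lower. The mitochondrial count rested on single samples. It was 10 without vehicle 3 of LNCaP-AI, with 4469 of all genes lower. It was 4 without vehicle 1 or 2 of LNCaP-AI or vehicle 2 or 3 of DU-145, with 4348 to 4665 of all genes lower. MT-ND2 had the largest mitochondrial difference, -1.11 ± 0.233 (SE, adjusted p = 0.00149) in the edgeR fit of 12 samples. Its CPM, scaled within each line and so not on a common scale, were 2101, 3875 and 4126 in LNCaP-AI and 5055, 7357 and 6934 in DU-145. MT-ND4 followed with -0.91 ± 0.226 (SE, adjusted p = 0.00429). For MT-ND2 the groups of the lines did not overlap.

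Among nuclear subunits the largest differences that do not rest on a line at 0 counts were those of complex I genes. NDUFA4L2, known as a hypoxia-induced relative of NDUFA4, had 83, 40 and 70 counts in LNCaP-AI and 10, 1 and 8 in DU-145, a log2 difference of 2.32 ± 0.492 (SE, adjusted p = 0.00164). NDUFB4, an accessory subunit, had 263, 200.1 and 199 CPM in LNCaP-AI and 52.3, 54.6 and 53.7 CPM in DU-145, scaled within each line. Its log2 difference in the edgeR fit of 12 samples was 1.86 ± 0.101 (SE, adjusted p = 8.79e-08). NDUFB7 and NDUFS5, both accessory subunits that hold disulfide bonds, were higher in LNCaP-AI by 1.70 and 1.66. Lower in LNCaP-AI were ATP5PO, the stalk subunit also called OSCP, and NDUFB8 of complex I, with log2 differences of -0.88 and -0.86. NDUFV2 had only 8 to 19 counts in all samples, although it is a core subunit, and an unnamed gene shares its exons in the annotation, so its log2 difference of -1.01 is uncertain. Depth was higher in all LNCaP-AI samples than in any DU-145 sample. By the paper's methods DU-145 cells were kept with heat-inactivated fetal bovine serum and LNCaP-AI cells with charcoal-stripped serum. Depth, medium and line thus cannot be told apart for these values.

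Tissue isoforms of complex IV subunits were nearly silent beside their common partners, with 1 exception. COX4I2, COX6A2 and COX8C, known as lung, heart and muscle, and testis forms, had at most 1 count in any sample. COX6B2 and COX7A1 had at most 22 and 9 counts. Their partners COX4I1, COX6A1, COX6B1, COX7A2 and COX8A had 879 to 8375 counts in all samples but for COX6A1 in DU-145, at 568 to 899. The exception was COX7B2 (chromosome 4, 46734827 to 46909245), a form of COX7B described in testis. In LNCaP-AI it had 56, 28 and 57 counts with vehicle and 138, 114 and 126 with DOX, which was 2.72, 1.59 and 2.1 CPM with vehicle and 5.9, 6.84 and 7.45 CPM with DOX. It rose by 1.65 on the log2 scale (SE 0.243, adjusted p = 0.0159), and by 1.36 and 1.64 within the sides. In DU-145 it had 0 counts in all 6 samples, where 3 counts was taken as the floor of detection. The common COX7B had 172, 189 and 178 CPM with vehicle and 197, 183 and 181 CPM with DOX in LNCaP-AI and a log2 fold change of 0.06 (adjusted p = 0.661). In all, 8 subunits in LNCaP-AI and 11 in DU-145 had too few counts for a test. They were COX4I2, COX6A2, COX6B2, COX7A1, COX8C, ATP5MGL and the readthrough genes NDUFC2-KCTD14 and ATP5MF-PTCD1 in both lines, and also NDUFA4L2, NDUFA7 and COX7B2 in DU-145.

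Nuclear copies of mitochondrial genes are annotated as pseudogenes and can share reads with them. MTND1P23, on chromosome 1 of GRCh38 from 629062 to 629433, matches MT-ND1 at 99.1% of 352 aligned bases. MTND4P12, on chromosome 5 from 134926660 to 134928036, matches MT-ND4 at 95.8% of 1376 aligned bases. To show how alike the first pair is, a stretch of 60 bases from the GRCh38 reference is given for both, chrM:4045-4104 within MT-ND1 and chr1:629215-629274 within MTND1P23, plus strand, 5′ to 3′, with the 2 bases that differ in capitals.
MT-ND1: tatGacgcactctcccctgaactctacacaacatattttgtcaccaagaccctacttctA
MTND1P23: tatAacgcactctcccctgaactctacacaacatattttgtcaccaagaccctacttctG

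In LNCaP-AI both copies went with the sides rather than with DOX. MTND1P23 had 15, 2405 and 4927 counts with vehicle and 2847, 15 and 11 with DOX in LNCaP-AI, and 11 to 30 counts in DU-145. MTND4P12 had 12, 1030 and 1857 counts with vehicle and 1235, 12 and 11 with DOX in LNCaP-AI, and 21 to 42 in DU-145. The samples of side B thus held all the high values of both copies. On that side the MTND1P23 counts came to 3.42, 4.15 and 3.28% of those of MT-ND1, and on side A to at most 0.0394%. MTATP6P1, MTND2P28 and MTCO1P12, which match MT-ATP6, MT-ND2 and MT-CO1 at 98.4 to 98.6%, had counts that overlapped between the sides, with MTATP6P1 at 7474 to 18454 counts in LNCaP-AI and 5338 to 9817 in DU-145. Of the 7 basal and mesenchymal markers, KRT5, CD44, S100A2, TP63 and ITGA2 were higher in every side B than in every side A sample, with CD44 at 0 to 2405 and KRT5 at 1 to 1434 counts among the vehicle samples alone. KRT14 and VIM separated by treatment instead, with 20 to 27 counts with vehicle and 74 to 76 with DOX for KRT14, and 509 to 874 and 990 to 1280 counts for VIM. Scaled by TMM over all 12 samples, the 7 markers summed to 50.7 to 294 CPM with vehicle and 82.8 to 276 CPM with DOX. The part of the division in the subunit values was not tested beyond the values within the sides. With the counts of the nuclear copies added to those of the mitochondrial genes, the mean share was 5.05% with vehicle and 6.56% with DOX in LNCaP-AI, and 6.97% and 5.95% in DU-145.

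**Figure D5:**
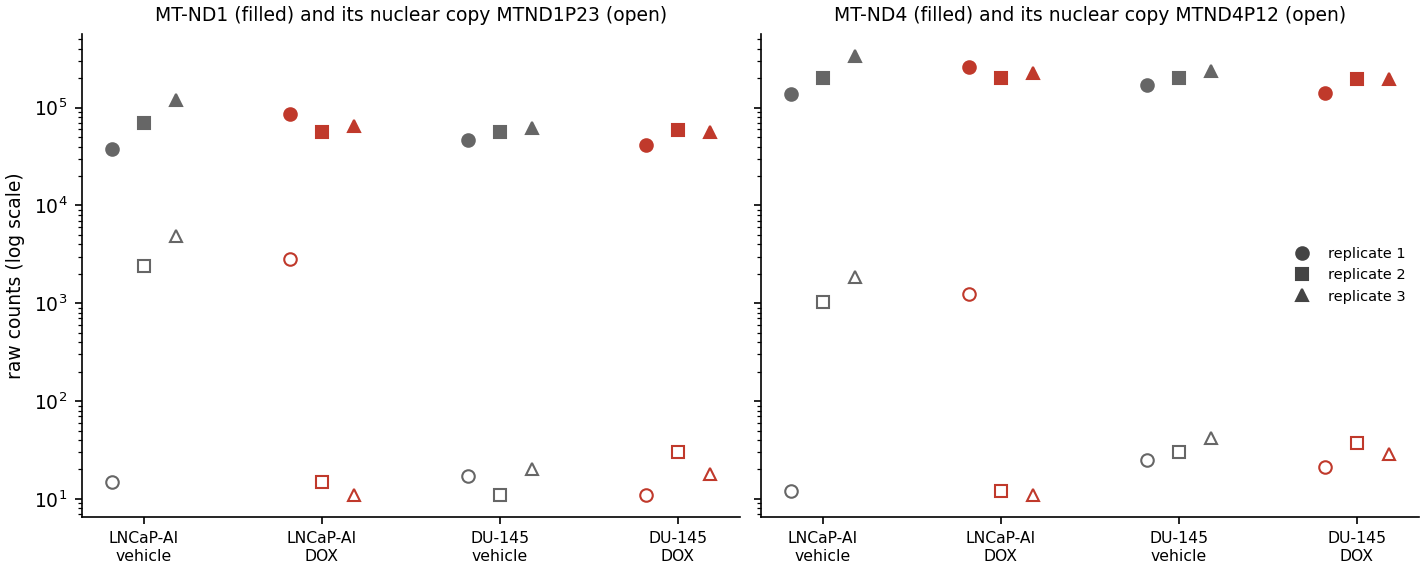
Raw counts (log scale) of MT-ND1 and MT-ND4 (filled) and of their nuclear copies MTND1P23 and MTND4P12 (open) in each sample, grey with vehicle and red with DOX, with symbols for the replicate number. In LNCaP-AI the copies are high in vehicle 2, vehicle 3 and DOX 1 (1030 to 4927 counts) and at 11 to 15 counts in the other samples, while the mitochondrial genes vary far less.

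Genes that act around the respiratory chain were counted from 7 lists, and their counts are to be read against the shares of all genes called, 7.22% higher and 5.52% lower in LNCaP-AI and 26.3% higher and 25.3% lower in DU-145. Of 24 genes for transcription and upkeep of mitochondrial DNA, 0 rose and 1 fell in LNCaP-AI, and 4 rose (16.7%) and 9 fell (37.5%) in DU-145. The helicase and nuclease DNA2 fell in both, with log2 fold changes of -0.96 and -1.01 (adjusted p = 0.0123 and 1.2e-07), and in DU-145 MTERF3, a repressor of mitochondrial transcription, fell and POLRMT, the mitochondrial RNA polymerase, rose, with -0.85 and 0.43. Of 24 genes for processing and stability of mitochondrial RNA, 0 rose and 1 fell in LNCaP-AI (PRORP, the nuclease that frees tRNA 5′ ends, -0.65), and 10 rose (41.7%) and 2 fell (8.33%) in DU-145. The genes that rose there include HSD17B10, the partner of PRORP (0.52), and FASTKD5, needed for maturing RNAs not flanked by tRNAs (0.44).

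Of 57 assembly factors in the table, 2 rose in LNCaP-AI, NDUFAF8 (0.51) and NDUFAF1 (0.50) of complex I, and 0 fell. In DU-145 24 rose (42.1%) and 6 fell, among them DMAC2 (0.52) and COA8 (0.56) upward, and COA5 and COX11, which serve complex IV, downward (-0.51 and -0.38). Of 20 regulators of mitochondrial biogenesis, 0 rose and 2 fell in LNCaP-AI, and 5 of 18 tested rose (27.8%, close to the 26.3% of all genes) and 7 fell (38.9%) in DU-145. GABPA, the ETS-domain subunit of GABP, fell in both lines, with log2 fold changes of -0.46 and -0.54 (adjusted p = 0.0310 and 3.48e-05). The coactivator PPARGC1B fell in LNCaP-AI (-0.63), while PPARD and PPARG rose in DU-145 (1.17 and 1.07).

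Of 27 genes of the citric acid cycle and pyruvate entry, 3 of 26 tested rose in LNCaP-AI, IDH3G (0.61), the pyruvate carrier MPC2 (0.98) and pyruvate carboxylase PC (0.40), and 0 fell. In DU-145 16 rose (59.3%) and 2 fell (7.41%). PDP1, a phosphatase that activates pyruvate dehydrogenase, and DLST of the 2-oxoglutarate dehydrogenase complex were among those that rose (0.85 and 0.54), and the 2 that fell, PDK4 (-1.15) and PDK1 (-0.22), are kinases that inhibit pyruvate dehydrogenase. Of 20 electron carriers and feeders of the chain, 2 rose and 1 fell in LNCaP-AI, and 7 rose (35.0%) and 5 fell (25.0%, close to the 25.3% of all genes) in DU-145. ETFDH and ETFA, which pass electrons from fatty acid oxidation to coenzyme Q, rose in both lines, by 0.63 and 0.51 in LNCaP-AI and 0.68 and 0.47 in DU-145. CYCS, which encodes cytochrome c, fell by 0.78 on the log2 scale in DU-145 (adjusted p = 4.33e-06). Of the nuclear retained RNAs MALAT1 and NEAT1, NEAT1 fell in DU-145 (-0.55) and neither was called in LNCaP-AI. The summed level of the 10 luminal markers, scaled by TMM over all 12 samples, lay higher with DOX in both lines. It ran from 2943 to 3995 CPM with vehicle and 4562 to 5709 CPM with DOX in LNCaP-AI, and from 776 to 839 and 1700 to 1794 CPM in DU-145 (6 and 5 of 10 markers at 0). Nearly all of the DU-145 sum came from 2 keratins, KRT8 (412 to 461 and 957 to 988 CPM) and KRT18 (328 to 351 and 700.0 to 762 CPM), and the part of these markers in the subunit values was not tested.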

How the data were processed

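RNA-seq libraries were made from poly(A) RNA with a stranded kit (TruSeq Stranded mRNA). The authors deposited 1 table of raw counts per gene for the 12 samples, and per the submitters' processing notes CASAVA 1.8.2, STAR 2.7.0, DESeq2 1.24.0 and GRCh38.p7 were used, while the counter and its strand setting are not given in the sources used here. Reads that match both a mitochondrial gene and a nuclear copy, or overlapping genes, could thus be assigned in more than 1 way. Symbols came from GENCODE release 44 (56948 of 58037 identifiers matched, versions removed).

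Samples were grouped by line and treatment from the labels, and each line was fitted by itself with edgeR 4.0.16 (R 4.3.3; TMM normalization, quasi-likelihood F test, a minimum of 10 counts in 3 samples per gene), with all 12 samples for the interaction and the line difference. P-values were adjusted over all genes tested, and a call needs an adjusted p under 0.05. Standard errors are the fold change over the root of F. CPM were scaled by TMM within each line, or over all 12 samples for the cell type markers. Within-side and same-number differences used log2(CPM + 0.1), and TPM used merged exon lengths. DESeq2 1.42.0, other normalizations, other filters, a replicate block, a single fit of 12 samples, the side as a covariate and leaving out each sample were alternatives. The fits were tested on simulated data. The named genes are the 13 mitochondrial genes, SDHA to SDHD, the nuclear subunits with the smallest adjusted p (8 per direction and line, 5 for the interaction), the largest line differences (5 per direction), those called in opposite directions, tissue isoforms with their partners, and the 3 smallest adjusted p per direction of 7 lists, some of which are not reported here. The subunits and lists were chosen with earlier results of these data known. Depth, 10423437 to 26961777 counts per sample, limits low genes, and intervals cover counting error only.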

Additional observations from a re-analysis of the deposited data

Results flagged for a closer look

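The effect of DOX differed between the lines in the interaction test for 4 of the 94 subunits tested (4.26%), all higher in LNCaP-AI. Over all 16800 genes 5.43% were higher and 3.76% lower. Without single samples the adjusted p of that test rose to as much as 0.072 for MT-CYB and 0.0698 for COX7C. LNCaP-AI minus DU-145, the log2 difference was 0.89 for ATP5MC2, 1.09 for MT-ND3, 1.14 for MT-CYB and 0.47 for COX7C. The groups of ATP5MC2 overlapped in neither line. Those of MT-ND3, MT-CYB and COX7C did not overlap in LNCaP-AI but did in DU-145.

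The share of counts taken by the 13 mitochondrial genes had a higher mean with DOX in LNCaP-AI (log2 of the means 0.38). Its mean was lower with DOX in DU-145 (-0.23), and the groups overlapped in both lines. This difference between the lines was not tested, and within side B of LNCaP-AI the share differed by -0.03 on the log2 scale.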

How the results depend on the processing

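The replicate numbers did not pair the samples: same-numbered vehicle and DOX samples deviated from their group means with correlations of -0.940, -0.812 and -0.840 in LNCaP-AI and 0.127, -0.0912 and 0.0763 in DU-145. With the replicate number as a block, 0 mitochondrial and 0 nuclear subunits rose in LNCaP-AI (0 calls over all genes, 2909 at an unadjusted p under 0.05). In DU-145 7 mitochondrial subunits fell (3408 of all genes). In the interaction 1 mitochondrial and 0 nuclear subunits had a higher effect in LNCaP-AI (30 of all genes). With vehicle 12 mitochondrial subunits were lower in LNCaP-AI (4491 of all genes).

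DESeq2 gave 3 mitochondrial and 26 nuclear subunits higher and 1 nuclear lower in LNCaP-AI (1897 and 1620 of all genes). It gave 0 mitochondrial lower in DU-145 (2967 of all genes). For the difference between lines it gave 5 mitochondrial and 5 nuclear higher and 2 nuclear lower (1282 and 999 of all genes). The single fit of 12 samples gave 2 and 30 higher and 1 nuclear lower in LNCaP-AI (2256 and 1677 of all genes). In DU-145 it gave 0 mitochondrial and 1 nuclear lower (2048 of all genes). The side as a covariate gave 9 and 35 higher and 1 nuclear lower in LNCaP-AI (3013 and 3258 of all genes). DESeq2 size factors gave 1 nuclear lower in LNCaP-AI (1049 of all genes). No filter gave 1 nuclear lower in LNCaP-AI (901 of all genes) and 8 mitochondrial lower in DU-145 (3471 of all genes). It also gave 1 nuclear with a higher effect in LNCaP-AI (500 of all genes) and 5 nuclear lower in LNCaP-AI with vehicle (4593 of all genes). Scaled to genes off the mitochondrial chromosome, the mean nuclear share was 1.23 and 1.41% (vehicle and DOX) in LNCaP-AI and 0.825 and 0.937% in DU-145. The DU-145 groups then overlapped, with DOX 2 at 0.907597% and vehicle 2 at 0.907614%.

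Leaving out 1 sample gave 0 to 2 mitochondrial and 0 to 23 nuclear subunits higher and 0 to 1 nuclear lower in LNCaP-AI. Over all genes it gave 1 to 1933 higher and 0 to 1605 lower there. In DU-145 it gave 1 to 10 mitochondrial lower, and 26 to 51 nuclear higher and 1 to 5 lower. Of all genes 2986 to 3615 were higher and 2932 to 3500 lower. For the difference between lines it gave 1 to 4 mitochondrial and 1 to 3 nuclear higher and 0 to 3 nuclear lower. Of all genes 454 to 1567 were higher and 283 to 2045 lower. For the lines with vehicle it gave 4 to 10 mitochondrial lower, where 4346 to 5148 of all genes were lower. The cause was not tested.

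Log2 fold changes near 0 turned sign. With upper-quartile normalization SDHD in LNCaP-AI was 0.019, NDUFA12 in LNCaP-AI 0.0518 and COX7C in DU-145 -0.00507. NDUFA12 in LNCaP-AI was 0.00104 with DESeq2, 0.00671 with the replicate block, 0.0252 in the single fit and 0.00386 with the side as a covariate, and MT-CO2 in DU-145 was 0.013 with the block. Leaving out 1 sample gave -0.20 to 0.31 for MT-ND1, -0.12 to 0.11 for SDHD and -0.10 to 0.10 for NDUFA12 in LNCaP-AI, and -0.22 to 0.11 for MT-CO1, -0.19 to 0.13 for MT-CO2 and -0.0428 to 0.0701 for COX7C in DU-145.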
